A study of Mus musculus with 6 samples.

Results

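The expression of 10 endothelial genes was followed in gastrointestinal stromal tumours of mice given imatinib or vehicle. The genes were the rows of the deposited gene-level table named Cldn5, Sox17, Selp, Edn1, Eng, Plvap, Lyve1, Pecam1, Cdh5 and Tek, so 10 of the 14713 genes that were tested. Lyve1 stood there under its older name Xlkd1 and was identified through its accession. All 10 were detected on all 6 arrays. Cldn5, Sox17, Selp and Edn1 were set against Eng, Plvap and Lyve1, and Pecam1, Cdh5 and Tek, which most endothelium expresses, served as a reference. The sets were drawn up with earlier results of the same arrays known, so the split between them is described and not tested.

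Gastrointestinal stromal tumour (GIST) arises in the gut wall, shares features with the interstitial cells of Cajal, and is often driven by the receptor tyrosine kinase KIT. All mice carried the genotype written in the labels as Kit V558Δ/+, a heterozygous activating Kit allele, in C57Bl/6 animals aged 6 weeks. The groups differed in what was injected into the peritoneum, vehicle (3 arrays) or imatinib (3 arrays), which inhibits several tyrosine kinases, KIT, ABL and the PDGF receptors among them. The labels give neither the dose nor the length of treatment, and they do not state whether each array of a group is a different animal, so the p-values reflect only how far these samples spread, which may be technical. Each array, an Illumina beadchip, was hybridised with biotin-labelled RNA of whole tumour tissue.

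Endothelial cells line blood and lymphatic vessels and differ by vessel type. Arterial cells use SOXF and Notch factors, venules present selectins that slow leukocytes, fenestrated capillaries carry pores closed by PLVAP diaphragms, and lymphatic endothelium displays the hyaluronan receptor LYVE1. Tight junctions built from claudin-5 seal the vessel wall, and VE-cadherin (Cdh5) and PECAM1 hold neighbouring cells together. Endoglin (Eng) is a co-receptor for BMP and TGF-beta ligands that rises in growing vessels. Some of these genes have other sources: P-selectin and PECAM1 are also found in platelets, and LYVE1 and endoglin in some macrophages.

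The number of probes above the negative controls (detection p under 0.05) was 20684 to 21439 per array, with no overlap between groups and the higher numbers on the imatinib arrays. The tested probes of the 10 genes rested on 28 to 67 beads per array, and the standard error over beads was 2.2% to 9.6% of the signal. Vehicle 2 lay closer to the imatinib arrays than the other vehicle arrays in several of the genes below. Kit and Etv1, defining genes of GIST, were detected on all 6 arrays, and so were 8 of 8 epithelial genes. In whole tissue, fewer cells of a type and less RNA per cell cannot be told apart.

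Cldn5, Sox17, Selp and Edn1 rose with imatinib, each at least 2.15-fold and at most 3.96-fold. Eng, Plvap and Lyve1 had lower means, by 1.87-fold to 2.78-fold, and none of them passed. Pecam1, Cdh5 and Tek had higher means, by 1.43-fold to 1.78-fold, and did not pass either. The test was limma's moderated test over all genes with Benjamini-Hochberg adjustment and a threshold of 0.05, values being log2 signals after background correction and quantile normalization. The 4 of 10 genes called higher stand beside 0.523% of all genes tested called higher, the 0 called lower beside 1.05%, and the 4 called in either direction beside 1.58%. The groups did not overlap in any of the 10 genes, against 31.9% of all genes tested without overlap, and all 10 had an unadjusted limma p under 0.05, against 26.4%. Each of these calls was lost when certain single arrays were left out. In such fits the log2 change ran from 1.68 to 2.23 for Cldn5 and from 0.97 to 1.26 for Sox17. For Selp it ran from 1.03 to 1.17, and for Edn1 from 1.23 to 1.62. None of the 4 genes passed without vehicle 1 (adjusted p from 0.0942 to 0.109), vehicle 3 (0.167 to 0.185), imatinib 1 (0.132 to 0.138) or imatinib 3 (0.11 to 0.128), and without imatinib 2 only Selp passed (limma adjusted p = 0.0402). Without vehicle 2 all 4 passed, Pecam1 rose with them (limma adjusted p = 0.0442), and Eng and Plvap fell (limma adjusted p = 0.0318 and 0.0397). The same held beyond these genes: 0 of all genes tested passed without vehicle 1, vehicle 3, imatinib 1 or imatinib 3. The count was 287 without imatinib 2 and 1355 without vehicle 2, beside 232 with all arrays.

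**Figure D1:**
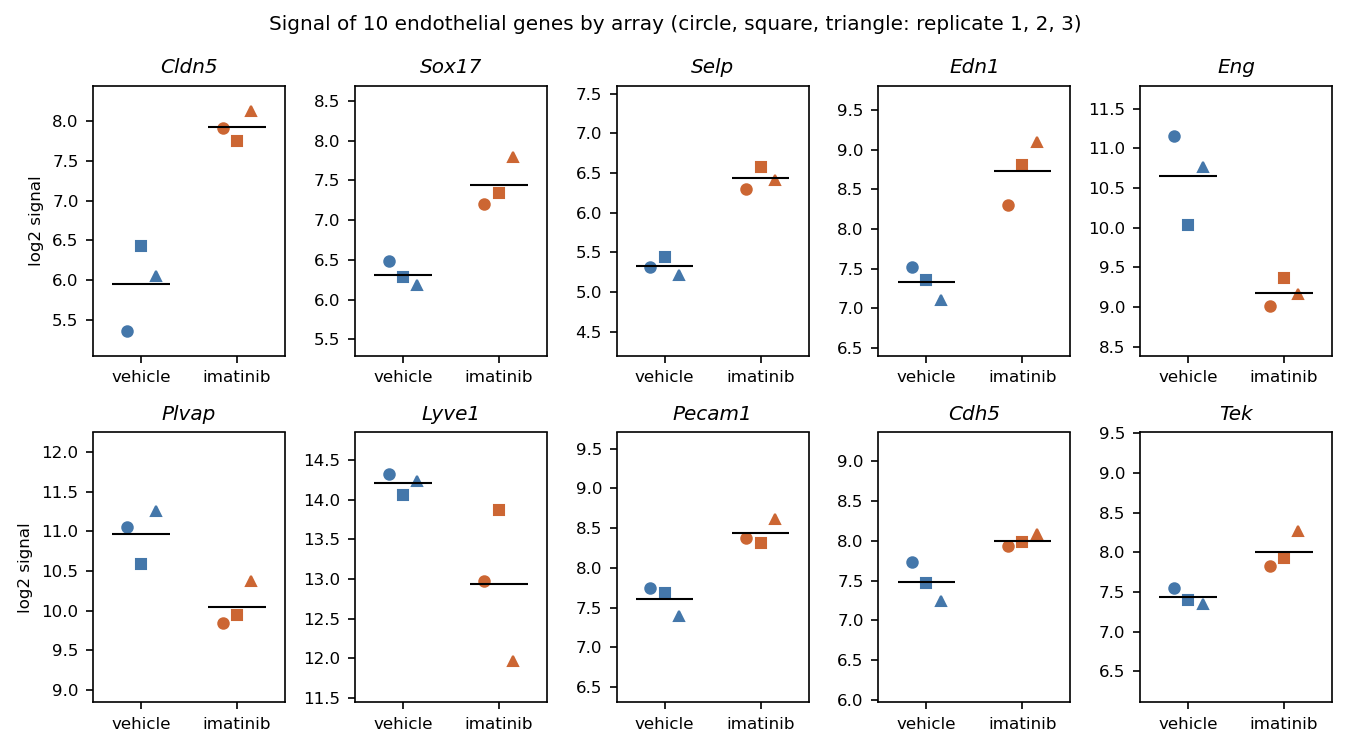
Log2 signal (y axis) of the 10 genes on the 3 vehicle and 3 imatinib arrays, with 1 panel per gene, all panels spanning the same number of log2 units, and a line at each group mean (n = 3 arrays). The imatinib arrays lie above the vehicle arrays in 7 genes and below them in Eng, Plvap and Lyve1, and Lyve1 is the gene with the widest spread among imatinib arrays.

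Cldn5 encodes the claudin of endothelial tight junctions. Its log2 signal was 5.36, 6.43 and 6.05 on vehicle 1, 2 and 3 and 7.92, 7.75 and 8.13 on imatinib 1, 2 and 3. The lowest imatinib array thus lay well above the highest vehicle array, and the vehicle arrays differed more among themselves than the imatinib arrays did. It rose 3.96-fold, from 5.95 ± 0.54 to 7.93 ± 0.19 (SD, n = 3 arrays). This is a log2 change of 1.98 ± 0.28 (SE, limma adjusted p = 0.0417). Before normalization, the vehicle signals of Cldn5 were 67.4 ± 5.97, 112 ± 7.82 and 95.2 ± 4.87 intensity units (SE over beads) and the imatinib signals 256 ± 14.1, 262 ± 10.6 and 276 ± 8.92. The bead error was small against the step between groups. The detection p on vehicle 1 was 0.0246, close to background, where the offset used makes folds too small. Epithelial markers took the same order as Cldn5 across the vehicle arrays: their mean centred log2 signal over 8 genes was -1.71, 0.67 and -0.48 on vehicle 1, 2 and 3 and 0.58, 0.24 and 0.71 on imatinib 1, 2 and 3. None of the 8 was at background and none passed, and their part in the result for Cldn5 was not tested. Without vehicle 1, where both were lowest, Cldn5 changed by 1.68 (limma adjusted p = 0.0942).

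Sox17 encodes a SOXF transcription factor needed for arterial identity. Its vehicle arrays read 6.48, 6.28 and 6.18 and its imatinib arrays 7.20, 7.34 and 7.80. No values overlapped, and imatinib 3 was the highest array. The gene rose 2.20-fold (log2 change 1.14 ± 0.18 SE, limma adjusted p = 0.0472). In the authors' deposited processed values the change was 0.79 and did not pass (limma adjusted p = 0.0528). A second probe of Sox17, not used in the test, changed by 1.39, in the same direction.

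Edn1 encodes the precursor of endothelin-1, a constrictor peptide secreted by endothelium. It read 7.52, 7.35 and 7.11 with vehicle and 8.30, 8.80 and 9.09 with imatinib. Edn1 rose 2.65-fold, from 7.32 ± 0.21 to 8.73 ± 0.40 (SD, n = 3 arrays), with a log2 change of 1.41 ± 0.22 (SE, limma adjusted p = 0.0471). The order of the arrays within each group was the same as for Sox17, with vehicle 3 lowest and imatinib 3 highest, and the root mean square difference between both genes over the 6 arrays, after centring, was 0.18 log2 units. Only Cdh5 with Tek at 0.13 and Pecam1 with Tek at 0.16 were closer among the 10 genes, and Pecam1 with Cdh5 also stood at 0.18.

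Selp encodes P-selectin, which activated venules and platelets expose to catch leukocytes. On the vehicle arrays it lay close to background, with vehicle signals of 66.1, 68.3 and 64.6 intensity units and detection p-values of 0.0299, 0.00748 and 0.0395. With imatinib the signals were 98.9, 130 and 103. On the log2 scale these were 5.32, 5.44 and 5.21 with vehicle against 6.30, 6.58 and 6.41 with imatinib, the tightest groups of the 4 genes. Selp rose 2.15-fold (log2 change 1.11 ± 0.13 SE, limma adjusted p = 0.0338). Its change depended on how background was treated and was 0.46 in the authors' deposited processed values (limma adjusted p = 0.0461). Of the 11 platelet genes, 3 passed the detection filter and none was called. Pf4, the platelet chemokine, changed by -0.65, and Itga2b, the platelet integrin chain, by 0.88 ± 0.16 (SE, limma adjusted p = 0.0534). Itga2b passed without vehicle 2 or without imatinib 2 (limma adjusted p = 0.047 and 0.0448). Pf4 was chosen after its value was seen. At an unadjusted limma p under 0.05, 1 of the 3 was higher and 1 lower, against 13.8% and 12.6% of all genes tested. The other 8 platelet genes, among them Gp9 and Ppbp, were not tested because they were not detected on enough arrays.

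Promoters of genes that rose were set beside that of Eng, because ETS, GATA and SOX factors are known to drive endothelial genes. The RefSeq promoter table (GRCm38.p6) held 5 of the 10 genes, Cldn5, Selp, Edn1, Eng and Tek. The 250 bases before the start are given 5′ to 3′ on the plus strand, at chr16:18776597-18776846 for Cldn5, chr1:164115014-164115263 for Selp, chr13:42301226-42301475 for Edn1 and chr2:32646345-32646594 for Eng. Capitals mark GGAAG (ETS) or ACAAT (SOX) on either strand.
Cldn5: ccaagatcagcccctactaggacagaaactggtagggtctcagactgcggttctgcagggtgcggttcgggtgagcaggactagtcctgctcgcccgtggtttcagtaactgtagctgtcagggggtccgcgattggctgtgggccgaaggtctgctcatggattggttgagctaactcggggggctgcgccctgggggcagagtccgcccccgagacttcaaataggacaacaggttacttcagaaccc
Selp: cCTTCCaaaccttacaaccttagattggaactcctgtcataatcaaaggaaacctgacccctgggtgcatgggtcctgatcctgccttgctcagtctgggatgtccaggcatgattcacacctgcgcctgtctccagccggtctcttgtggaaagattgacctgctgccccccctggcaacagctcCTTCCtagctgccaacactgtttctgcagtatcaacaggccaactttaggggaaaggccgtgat
Edn1: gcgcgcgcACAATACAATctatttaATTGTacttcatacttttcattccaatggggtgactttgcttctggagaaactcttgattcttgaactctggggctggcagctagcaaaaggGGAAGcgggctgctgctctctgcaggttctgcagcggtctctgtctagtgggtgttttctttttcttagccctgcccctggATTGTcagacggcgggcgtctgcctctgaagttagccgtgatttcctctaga
Eng: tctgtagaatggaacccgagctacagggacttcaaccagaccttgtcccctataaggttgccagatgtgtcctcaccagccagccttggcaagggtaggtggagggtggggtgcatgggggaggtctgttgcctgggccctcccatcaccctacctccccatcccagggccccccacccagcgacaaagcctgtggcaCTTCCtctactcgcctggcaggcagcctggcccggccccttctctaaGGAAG

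The ETS letters GGAAG or CTTCC stood in 64.1% of 32851 promoter windows of this length, so their presence in Selp, Edn1 and Eng is common. ACAAT or ATTGT stood in 27.7%. Edn1 held 4 such matches, at 242, 237, 225 and 52 bases before the start, Tek, whose sequence is not printed, held 2, at 63 and 7 bases, and Selp, Eng and Cldn5 held none. GATAA or TTATC (GATA, 22.6% of windows) and TGACTCA or TGAGTCA (AP-1, 4.5%) matched in none of the 5. The letters searched did not separate the genes that rose from Eng, and a match is no proof of binding.

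Eng, the endoglin gene, had vehicle values of 11.16, 10.04 and 10.77 and imatinib values of 9.01, 9.37 and 9.17. All imatinib arrays were lower, and vehicle 2 lay nearest to them. The log2 change was -1.47 ± 0.29 (SE, 95% interval -2.17 to -0.78, limma adjusted p = 0.0581), from 10.66 ± 0.57 to 9.18 ± 0.18 (SD, n = 3 arrays). Without vehicle 2 it was -1.78 (limma adjusted p = 0.0318).

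Plvap, which encodes the protein of fenestral and caveolar diaphragms, read 11.05, 10.59 and 11.25 with vehicle and 9.84, 9.94 and 10.37 with imatinib. The gap between vehicle 2 and imatinib 3 was small. The log2 change was -0.91 ± 0.22 (SE, 95% interval -1.44 to -0.37, limma adjusted p = 0.0779) and -1.09 without vehicle 2 (limma adjusted p = 0.0397). Plvap resembled Eng more than Lyve1 did, with a root mean square difference from Eng of 0.40 log2 units against 0.57.

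Lyve1, the hyaluronan receptor of lymphatic endothelium and of some macrophages, read 14.32, 14.06 and 14.23 with vehicle and 12.98, 13.87 and 11.97 with imatinib. The vehicle arrays were close together, imatinib 2 lay just below them, and imatinib 3 was far lower. Unnormalized signals were 21275, 16605 and 19337 intensity units with vehicle and 7747, 15663 and 3437 with imatinib, so the imatinib arrays differed 4.56-fold among themselves. The log2 change was -1.26 ± 0.45 (SE, 95% interval -2.34 to -0.19, limma adjusted p = 0.146). It was -0.77 without imatinib 3 and -1.73 without imatinib 2, and passed in neither (limma adjusted p = 0.27 and 0.0596). Kit showed the same order of arrays within each group as Lyve1, with 14.39, 14.01 and 14.33 on vehicle 1, 2 and 3 and 13.88, 14.47 and 13.47 on imatinib 1, 2 and 3, although its groups overlapped. Of the other GIST genes, Gpr20 took that order too, Etv1 differed from it in both groups and Prkcq among the vehicle arrays. Kit, Gpr20 and Etv1 were chosen after their values were seen. Over the 4 measured GIST genes the mean centred signal ran from 0.05 to 0.38 on vehicle arrays and from -0.64 on imatinib 3 to 0.21 on imatinib 2, and its part in the Lyve1 result was not tested.

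The macrophage genes differed among themselves. Adgre1, the F4/80 antigen of macrophages, read 11.61, 11.60 and 10.53 on imatinib 1, 2 and 3, and Csf1r, their growth factor receptor, 10.03, 10.12 and 9.42, so both were lowest on imatinib 3, as Lyve1 was. Cd163, a scavenger receptor, read 5.61, 5.51 and 6.51 and was highest there. These 3 genes were chosen after their values were seen. The mean centred signal over the 14 measured genes lay between -0.02 and 0.22 on the vehicle arrays and between -0.18 and 0.03 on the imatinib arrays, an average that does not show the spread of single genes. None of the 14 passed, with a median log2 change of -0.38. At an unadjusted limma p under 0.05, 5 were lower and 1 higher, against 12.6% lower and 13.8% higher of all genes tested. C1qa, a complement component made by macrophages, changed by -0.76 ± 0.17 (SE, limma adjusted p = 0.0676). The part of macrophages in the values of Eng and Lyve1 was not tested.

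**Figure D2:**
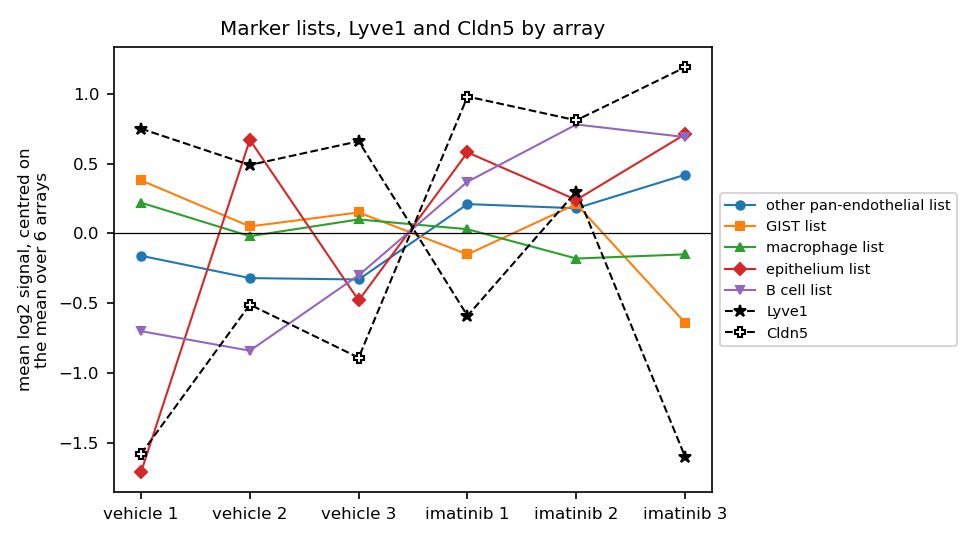
Mean centred log2 signal (y axis) of 5 marker lists, and the centred signal of Lyve1 and Cldn5, on the 6 arrays (x axis); lines join the arrays only to guide the eye. Cldn5 and the epithelium list are both lowest on vehicle 1, and Lyve1 and the GIST list are both lowest on imatinib 3 and highest of their group on imatinib 2.

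Pecam1, Cdh5 and Tek, the reference genes, were all higher on the imatinib arrays without passing. Pecam1, an adhesion molecule at endothelial contacts, read 7.74, 7.68 and 7.39 with vehicle and 8.37, 8.31 and 8.62 with imatinib (log2 change 0.83 ± 0.15 SE, limma adjusted p = 0.053). Cdh5, which encodes VE-cadherin, read 7.74, 7.47 and 7.24 against 7.94, 7.98 and 8.09, so vehicle 1 came within a short step of the imatinib arrays. Its log2 change was 0.52 ± 0.15 (SE, limma adjusted p = 0.105). Tek, the angiopoietin receptor TIE2, read 7.55, 7.40 and 7.35 against 7.83, 7.93 and 8.27 (log2 change 0.58 ± 0.15 SE, limma adjusted p = 0.0862). The second probes of Pecam1 and Cdh5 changed by 0.60 and 0.70, in the same direction as the tested ones. Pecam1 lay close to the threshold and passed in 6 of 17 alternatives. These were no background correction (limma adjusted p = 0.0489), an offset of 50 (0.0472), the authors' deposited processed values (0.0478), a trended and robust variance (0.0462), array weights (0.00153) and leaving out vehicle 2 (0.0442). Without imatinib 3 the value was 0.51 (limma adjusted p = 0.191), but it came from the second probe of Pecam1. The brightest probe was chosen anew when an array was left out.

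**Figure D3:**
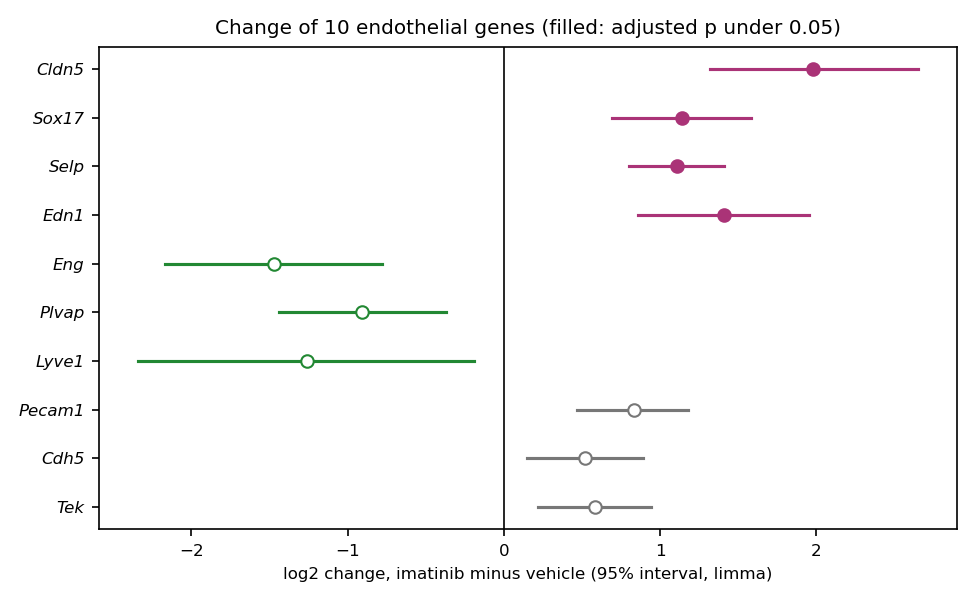
Log2 change from vehicle to imatinib (x axis) of the 10 genes with its 95% interval from limma (n = 3 arrays per group); filled points have an adjusted p under 0.05. Cldn5, Sox17, Selp and Edn1 lie above 1, Eng, Plvap and Lyve1 below 0, and Pecam1, Cdh5 and Tek between.

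The mean log2 change was 1.41 over Cldn5, Sox17, Selp and Edn1, -1.21 over Eng, Plvap and Lyve1, and 0.64 over the reference genes. The gap between the first 2 sets was 2.62 log2 units, or 6.16-fold. On single arrays the difference of both sets, after centring, was -1.61, -0.78 and -1.54 on vehicle 1, 2 and 3 and 1.22, 0.96 and 1.75 on imatinib 1, 2 and 3, with SDs of 0.46 and 0.40. Every vehicle array was thus negative and every imatinib array positive, vehicle 2 being nearest to the imatinib group. Since the sets were divided with these changes known, the gap carries no test.

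Set against the mean of Pecam1, Cdh5 and Tek on the same array, Eng changed by -2.12, Lyve1 by -1.91 and Plvap by -1.55 log2 units. On this relative scale Cldn5 changed by 1.34, Edn1 by 0.77, Sox17 by 0.50 and Selp by 0.46. In none of the 7 did the groups overlap, but the share of all genes without overlap on this scale was not computed. For Eng, Plvap and Lyve1 it was fixed in advance, as they were lower and the reference mean higher on every imatinib array. The relative value of Selp was 0.03 on imatinib 3 and -0.12 on vehicle 2, so Selp stood little above the reference genes, and in the authors' deposited processed values its relative change was -0.03. Sox17 likewise had a narrow margin, with relative values from -0.29 to -0.20 with vehicle and from 0.11 to 0.42 with imatinib.

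**Figure D4:**
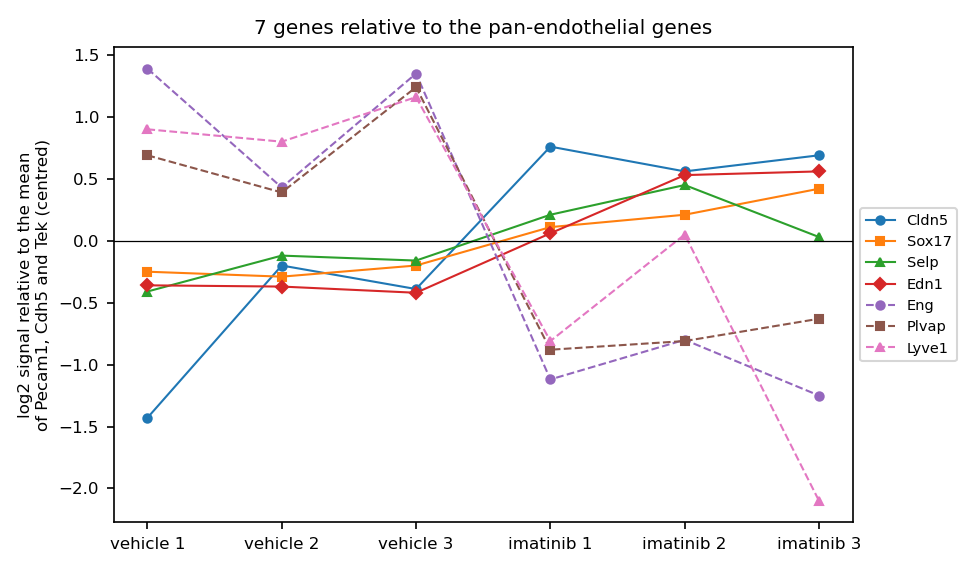
Log2 signal of 7 genes relative to the mean of Pecam1, Cdh5 and Tek, centred over the 6 arrays (y axis), by array (x axis); lines join the arrays only to guide the eye. Eng, Plvap and Lyve1 (dashed) lie above 0 on the vehicle arrays, and Cldn5, Sox17, Selp and Edn1 (solid) above 0 on the imatinib arrays. Lyve1 also lies just above 0 on imatinib 2, at 0.05.

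Other genes of endothelium and of the pathways around these 10 were read from the same fit, in 12 lists with 114 entries, of which 83 were tested. Jam2, a junctional adhesion molecule of endothelium, was the one gene called: it rose 2.11-fold, a log2 change of 1.08 ± 0.17 (SE, limma adjusted p = 0.0471). Jam2 did not pass without vehicle 1, vehicle 3, imatinib 1 or imatinib 3 (limma adjusted p from 0.11 to 0.181). Its change also depended on the table and the probes: it was 0.72 with the mean of its probes (limma adjusted p = 0.0495), 0.53 in the deposited gene-level table and 0.34 in the authors' deposited processed values, and passed in neither of these tables (limma adjusted p = 0.0571 and 0.0735). No other gene of the lists passed in either direction, while 1.58% of all genes tested passed. Without vehicle 2, 1355 of all 14462 genes tested passed, 767 higher and 588 lower. Only genes named by the rule given below were read from the lists in that fit. Of these, Nr2f2, Angpt2, Aqp1 and Ccl21a were also called higher (limma adjusted p from 0.0318 to 0.0388) and Icam1, Flt4 and Tgfb1 lower (0.0324 to 0.047). Icam1 was also called lower without imatinib 2 (limma adjusted p = 0.0402). At an unadjusted limma p under 0.05, 32 of the 83 were higher and 8 lower, against 13.8% and 12.6% of all genes tested. The median log2 change of the 83 was 0.40 beside 0.04 over all genes tested. The groups did not overlap in 38 genes with higher imatinib values and 8 with lower, against 17.4% and 14.5% of all genes.

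Of 13 further pan-endothelial genes tested, 12 had a higher mean with imatinib, and the median log2 change was 0.53. None passed, and 9 were higher at an unadjusted limma p under 0.05, against 13.8% of all genes tested. Egfl7, a secreted factor of vessel tube formation, changed by 0.72 ± 0.14 and Mmrn2, an endothelial matrix protein, by 0.73 ± 0.15 (SE, limma adjusted p = 0.0594 and 0.0598). With the mean of its probes, Egfl7 changed by 0.38 (limma adjusted p = 0.111). Vwf changed by 1.17 ± 0.26 (SE, limma adjusted p = 0.0702), close to the 1.14 of Sox17. Fli1, the gene of the list with a lower mean, changed by -0.19 ± 0.17 (SE, limma adjusted p = 0.499). Vwf and Fli1 were chosen after their values were seen. Kdr, which encodes the main VEGF receptor, and Erg were not tested because they were detected on too few arrays. Beside Tek, the ligand gene Angpt2 changed by 1.02 ± 0.19 (SE, limma adjusted p = 0.0542); it was the 1 gene tested of the 4 in its list.

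The arterial genes around Sox17 showed no call among 10, with a median log2 change of 0.27. At an unadjusted limma p under 0.05, 3 were higher, against 13.8% of all genes tested. Cxcr4, a chemokine receptor of arterial and tip cells that leukocytes also carry, changed by 1.08 ± 0.25 and Gja4, a connexin of arterial endothelium, by 0.63 ± 0.20 (SE, limma adjusted p = 0.0743 and 0.122). The SOXF relatives Sox18 and Sox7 changed by 0.50 ± 0.19 and 0.18 ± 0.21 (SE, limma adjusted p = 0.168 and 0.598), and the groups overlapped for Sox7. The change of Sox7 was 0.01 without vehicle 3, 0.08 without imatinib 2 and 0.37 without vehicle 1. Whether Sox17 changed more than its relatives was not tested.

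The venous and activation genes around Selp were mixed. None of 8 passed, 4 were higher and 1 lower at an unadjusted limma p under 0.05, against 13.8% and 12.6% of all genes tested. Nr2f2, the transcription factor of venous identity, changed by 0.95 ± 0.18 (SE, limma adjusted p = 0.0547). Of its 4 probes, 1 passed the detection filter. The change of Nr2f2 was 0.39 in the deposited gene-level table and 0.22 in the authors' deposited processed values, and passed in neither. Icam1, an adhesion molecule induced in inflamed vessels and present on leukocytes, changed by -1.26 ± 0.25 (SE, limma adjusted p = 0.059). Ackr1, a chemokine receptor of venules chosen after its value was seen, changed by 1.73 ± 0.41 (SE, limma adjusted p = 0.0749). Of 4 genes of the selectin list none passed. Selplg, the ligand of P-selectin on leukocytes, changed by -0.35 ± 0.12 and Cd63, which lies in the same storage granules as P-selectin, by 0.48 ± 0.20 (SE, limma adjusted p = 0.137 and 0.186), the latter by 0.30 without vehicle 1. In that list 1 gene was higher and 1 lower at an unadjusted limma p under 0.05, against 13.8% and 12.6% of all genes tested.

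Genes of high endothelial venules, the entry sites of lymphocytes, showed no call among 5. Glycam1, a mucin of these venules, changed by 1.69 ± 0.41 and was detected on 2 of 3 vehicle arrays, while the sulphotransferase gene Chst2 changed by -1.57 ± 0.46 (SE, limma adjusted p = 0.0776 and 0.104). At an unadjusted limma p under 0.05, 3 of the 5 were higher and 1 lower, against 13.8% and 12.6% of all genes tested. The 3 were Glycam1, Chst4 and Madcam1. Chst4 too was detected on 2 of 3 vehicle arrays, and Madcam1 on 0, so that Madcam1 was tested through its imatinib arrays alone and had to be higher. Chst4 and Madcam1 were chosen after their values were seen. B cell genes were higher on the same arrays: over 4 measured genes the mean centred signal was -0.84 to -0.30 with vehicle and 0.37 to 0.78 with imatinib, and Cd79a, detected on 2 of 3 vehicle arrays, rose 3.13-fold (limma adjusted p = 0.0417). Cd79a passed without vehicle 2 and with no other array left out (limma adjusted p from 0.0559 to 0.167). The part of lymphoid tissue in the values of Selp and of these genes was not tested.

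Lyve1 and most of the other lymphatic genes differed in direction. Of 6 tested, 5 had a higher mean and none passed. At an unadjusted limma p under 0.05, 2 were higher and 1 lower, against 13.8% and 12.6% of all genes tested. Ccl21a, the chemokine of lymphatic vessels and lymphoid stroma, changed by 1.59 ± 0.41 (SE, limma adjusted p = 0.0847). Flt4, which encodes the VEGF-C receptor, changed by -1.23 ± 0.27 and was detected on 2 of 3 imatinib arrays (SE, limma adjusted p = 0.0702). The list varied across the vehicle arrays in the order of the epithelial genes, from -1.02 on vehicle 1 to 0.33 on vehicle 2. Prox1, the defining transcription factor of lymphatic endothelium, was not tested, being detected on too few arrays.

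In the capillary and fenestrated list around Plvap, none of 7 passed. At an unadjusted limma p under 0.05, 2 were higher and 1 lower, against 13.8% and 12.6% of all genes tested. Aqp1, a water channel, changed by 1.65 ± 0.36 and Cav1, the caveolar coat protein, by 0.92 ± 0.23 (SE, limma adjusted p = 0.0682 and 0.0819). Both lay opposite to Plvap, which shares caveolae with Cav1. Esm1, a gene of sprouting endothelium chosen after its value was seen, changed by -1.19 ± 0.36 (SE, limma adjusted p = 0.109).

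The endoglin and BMP pathway showed no call among 12, with a median log2 change of 0.11. At an unadjusted limma p under 0.05, 3 were higher and 2 lower, against 13.8% and 12.6% of all genes tested. Tgfb1, a ligand, changed by -1.08 ± 0.19 and Smad4, the shared signal carrier, by 0.43 ± 0.12 (SE, limma adjusted p = 0.053 and 0.0967). Acvrl1, the receptor that works with endoglin, changed by -0.58 ± 0.22 (SE, limma adjusted p = 0.158), and the pathway target Id1 by 0.83 ± 0.46 (limma adjusted p = 0.287). Acvrl1 and Id1 were chosen after their values were seen.

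The endothelin system around Edn1 held no call among 5, with a median log2 change of 0.07. At an unadjusted limma p under 0.05, 0 were higher and 1 lower, against 13.8% and 12.6% of all genes tested. Edn3, another endothelin, changed by -1.86 ± 0.55 and the receptor gene Ednrb by 0.68 ± 0.29 (SE, limma adjusted p = 0.106 and 0.197). Both values moved when single arrays were left out. Edn3 changed by -2.47 without imatinib 2, where it passed (limma adjusted p = 0.0402), and Ednrb by 0.36 without vehicle 2 (limma adjusted p = 0.183). Without vehicle 3 the value for Edn3 was -0.98 (limma adjusted p = 0.46), but it came from the other probe of Edn3. The brightest probe was chosen anew in each fit. Among the junction partners of Cldn5, all 10 genes tested had a higher mean (median log2 change 0.31). At an unadjusted limma p under 0.05, 3 were higher, Jam2 among them, against 13.8% of all genes tested.

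**Figure D5:**
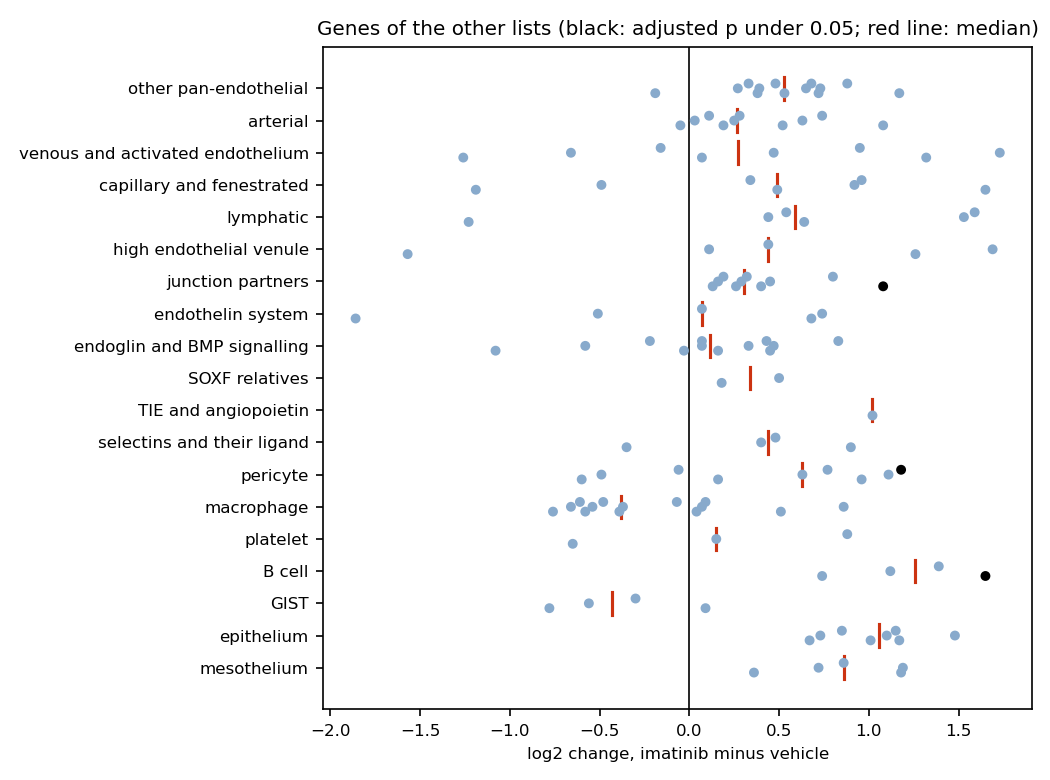
Log2 change from vehicle to imatinib (x axis) of each tested gene in the 12 endothelial and pathway lists and 7 lists of other cell types; black points passed an adjusted p of 0.05 and red lines are medians. Most genes of the vascular lists lie right of 0, with Jam2 the one black point among them.

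Pericyte genes, which mark the cells that wrap small vessels and depend on PDGF receptor beta, gave 1 call among 9. Of all genes tested, 0.523% were called higher. Abcc9, a potassium channel subunit of pericytes, rose 2.26-fold (log2 change 1.18 ± 0.18 SE, limma adjusted p = 0.0441). Abcc9 passed without vehicle 2 (limma adjusted p = 0.0335) and with no other array left out (0.063 to 0.167). Pdgfrb itself, chosen after its value was seen, changed by -0.06 ± 0.16 (SE). At an unadjusted limma p under 0.05, 4 pericyte genes were higher and 1 lower, against 13.8% and 12.6% of all genes tested. The lower gene was Rgs5, chosen after its value was seen, which changed by -0.49 ± 0.14 (SE, limma adjusted p = 0.103). The pericyte median was 0.63. Among other cell types, Krt18 of epithelium changed by 1.48 ± 0.57, Wt1 of mesothelium by 1.18 ± 0.66 and Prkcq of GIST by -0.78 ± 0.23 (SE, limma adjusted p = 0.169, 0.297 and 0.109). Krt18 changed by 0.87 without vehicle 1 and by 2.04 without vehicle 2, where it passed (limma adjusted p = 0.0469), and Wt1 by 0.69 without vehicle 2 and 1.91 without vehicle 3. No gene passed in these 3 lists with all arrays, of 8, 5 and 4 tested. At an unadjusted limma p under 0.05, 1 epithelial gene was higher, 1 GIST gene lower and 0 mesothelial genes were in either direction.

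Over all 14713 genes, the profiles most like that of Cldn5 belonged to Chst8, Aqp1 and Mt2, with root mean square differences of 0.15, 0.22 and 0.26 log2 units over the 6 centred arrays. Chst8 encodes a sulphotransferase and Mt2 a metallothionein. All 3 were lowest on vehicle 1 and higher on vehicle 2 than on vehicle 3, as Cldn5 was. The profiles most like that of Eng were those of Sertm1, Lpcat4 and Pimreg, at 0.10, 0.14 and 0.14. Sertm1 and Pimreg were detected on no imatinib array, so their profiles are cut off at background.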

How the data were processed

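Per the labels' protocols, total RNA was extracted with Trizol and 200 ng of it was amplified and given a biotin label. Per the file headers, the deposited probe table holds an intensity per probe (45281 probes), the count of beads behind it, their standard error (a signal in the same units) and a detection p-value, with no normalization. A second deposited table holds 31492 gene-level log2 values, not normalized, and another holds the authors' processed log2 values, all 6 columns with a median of 5.53; no source used here gives their normalization, and their values are neither centred nor signed. The submitters' processing notes name Partek. Titles gave the groups.

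Gene-level rows were matched to runs of probes by the log2 of their mean intensity (within 1e-05, or 0.0001 for values of 10 and over), and all 31492 rows matched 1 run. In the platform annotation 21546 rows had 1 symbol, 0 several and 9946 none, 4 of these sharing repeated names and left out. Names were updated through RefSeq (GRCm38.p6) by gene ID (10657 rows), accession (5492), symbol (2458) or synonym (3385).

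Background was corrected by normexp from the detection p-values (offset 16), then quantile normalization and log2 (limma 3.58.1, R 4.3.3). Folds of dim genes come out too small because of this offset. Of the probes, 21395 were detected on at least 3 arrays, and the brightest per gene was tested (14713 genes) with lmFit and eBayes, without a block. With an array left out, the detection filter and the brightest probe were applied anew, so the probe of a gene could change. The deposited gene-level and processed tables were filtered otherwise. Rows with a mean above the median of row means were kept, without detection p-values (14931 and 14916 genes). A gene-level row averages all its probes, detected or not, so adjusted p-values from these tables rest on other genes and probes. The procedure was run on simulated data with planted changes and independent noise. That run checks the code and not the calls above, since it holds no shifts shared by the genes of an array. The files give no slide or scan date. The precision is limited by the number of arrays. Members, sets and lists were chosen with earlier results of these data known. Genes were named by a rule: the 10 members, up to 3 called genes of each vascular list or else its 2 with the smallest p, up to 2 called (or 1) of each marker list, and 3 most like Cldn5 and 3 most like Eng, passing over clones and predictions. Others are marked as chosen after their values were seen. The alternatives covered background, normalization, the detection filter, probe choice, deposited table, variance model, array weights, a replicate block, each array left out and the threshold.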

Additional observations from a re-analysis of the deposited data

How the results depend on the processing

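The direction of all 10 members held under all 17 alternative processings, and the gap of 2.62 between both sets ranged from 2.28 to 2.89. The calls did not hold as well. Over all genes, 232 passed, 355 with an offset of 50, 408 with the mean of a gene's probes, 364 in the gene-level table, 354 in the authors' processed values, 432 with a trended and robust variance and 1668 at an adjusted p of 0.10. With array weights, whose estimation stopped before its tolerance was reached, 7585 passed, 7 members among them higher and 3 lower. Without a detection filter 0 genes and 0 members passed by limma (5183 genes at an unadjusted p under 0.05), with 29516 genes tested in place of 14713. Leaving out 1 array gave 0 to 1355 genes, 0 to 5 members higher and 0 to 2 lower, the highest of each without vehicle 2. At an adjusted p of 0.10, 2 members were lower. The change of Selp relative to Pecam1, Cdh5 and Tek turned to -0.03 in the authors' processed values, and that of Wt1 to -0.29 with array weights; the cause was not tested.

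Replicate numbers are shared between groups, but nothing in the labels pairs the tumours, and the deviations of same-numbered arrays from their group means correlated at -0.112, -0.308 and 0.019. With the replicate number as a block, 0 genes and 0 members passed by limma (2900 genes at an unadjusted p under 0.05; adjusted p of Cldn5 0.147). A signal close to background limits Selp and Cldn5 on the vehicle arrays.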
